A study of Mus musculus with 3 samples.

Results

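B cells of the mouse diaphragm were the cell barcodes with at least 3 UMIs (unique molecular identifiers, 1 per captured RNA molecule) of *Cd79a* and *Cd79b* together, no UMI of *Cd3e*, *Pdgfra* or *Pecam1*, and at most 1 UMI of *C1qa*. *Cd79a* and *Cd79b* encode the signalling pair of the B cell receptor. The excluded genes mark T cells, fibro-adipogenic progenitors (FAPs), endothelial cells and macrophages. The rule selected 541 of 12275 barcodes (4.41%). The cells were chosen by these UMIs, so the levels of the 6 rule genes are a description and carry no test.

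The study profiled mononuclear cells from costal diaphragms of male mice by droplet single-cell RNA-Seq, with 1 library per group and 2 mice pooled in each. WT CD mice were C57BL/6J animals on control diet (CD), and WT HFD mice were C57BL/6J animals on high-fat diet (HFD, 45% of calories from lipid). KO HFD mice were whole-body *Thbs1*-/- animals on the same HFD, from a line that its supplier keeps on a C57BL/6J background. All groups ate chow until 2 months of age. CD mice stayed on that chow for 6 more months, and HFD mice ate the HFD for 6 months. The CD was not matched to the HFD in micronutrients, which the paper leaves to future work. Muscle was digested with collagenase, erythrocytes were lysed and dead cells were gated out with DAPI, so shares of cells depend on what digestion and gating released. There was no KO library on CD, and the 2 mice of a pool could not be told apart. With 1 library per group no difference between groups was tested, and intervals on shares (exact 95% Clopper-Pearson, Newcombe for differences) and on counts (exact Poisson) cover counting error only.

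B cells recognise antigen through a membrane immunoglobulin that is held at the surface with the CD79A and CD79B chains. Naive follicular B cells carry IgM together with IgD, recirculate through lymphoid organs, and present peptides on MHC class II. B-1 cells carry IgM with little IgD, populate the serous cavities that border the diaphragm, and give rise to plasma cells, which splice *Xbp1*, attach the J chain to IgM and secrete it.

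The WT CD library held 4132 barcodes and 34312860 UMIs, the WT HFD library 3774 barcodes and 31967976 UMIs, and the KO HFD library 4369 barcodes and 36478779 UMIs. B cells had a median of 9051.5 UMIs in WT CD, 6943.5 in WT HFD and 4659 in KO HFD. Their depth thus fell in the order in which their share fell, while the median over all barcodes differed little, at 7632.5, 8041.5 and 7554 UMIs. The part of depth in the results below was tested only where a value after thinning is given. The libraries shared 7, 7 and 2 barcode sequences pairwise, and none of these was a B cell. *Thbs1*, the deleted gene, was present at 136 CPM (counts per 1000000 UMIs) in the WT CD library, 202 CPM in the WT HFD library and 163 CPM in the KO HFD library. The 3′ reads of *Thbs1* were therefore not lower in the library labelled KO HFD than in WT CD. Where these reads lie relative to the altered part of the gene was not analysed here, so the label KO HFD was not checked by its target gene, and this holds for each comparison with that library. B cells had 1, 1 and 3 *Thbs1* UMIs.

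The B cell label was checked on a gene that the rule did not use. *Ms4a1*, which encodes the B cell surface protein CD20, was detected in 292 of 344 cells in WT CD, 114 of 118 in WT HFD and 71 of 79 in KO HFD, or 477 of 541 in all (88.2%, 85.1% to 90.8%). Among barcodes with a *Pdgfra* UMI, whatever their *Cd79a* and *Cd79b* UMIs, *Ms4a1* was detected in 13 of 2068 in WT CD (0.629%), 4 of 1886 in WT HFD (0.212%) and 5 of 2282 in KO HFD (0.219%), at median depths of 8670, 9291.5 and 8550.5 UMIs. Markers of other cells were scarce in B cells. The 4 neutrophil markers summed to 1 UMI, the 4 endothelial markers to 7 UMIs and the 3 mesothelial markers to 0 UMIs over all 541 cells. The FAP list summed to 79.5, 60.9 and 57.7 CPM in WT CD, WT HFD and KO HFD, mostly of *Gsn*, with *Osr1* at 0, and the dendritic cell list to 16.7, 53.2 and 19.8 CPM, with *Cd209a* as the most abundant gene and *Clec9a* and *Siglech* at 0. The T and NK cell list of 9 genes summed to 14.9, 16.4 and 23.1 CPM in WT CD, WT HFD and KO HFD, with *Trac* as the most abundant gene and *Nkg7*, *Gzma* and *Klrb1c* at 0. The 7 macrophage markers summed to 331 CPM in WT CD, 1025 CPM in WT HFD and 394 CPM in KO HFD. *Lyz2*, which encodes lysozyme, made up 91.3%, 86.8% and 91.2% of these UMIs. Only 23 B cells (9, 11 and 3) had 5 or more UMIs of the macrophage list, and they held 96.3% of its 2587 UMIs. With 5 or more UMIs of any of 8 other cell types' lists, 31 B cells (15, 12 and 4) were set aside as mixed barcodes where stated. Scrublet, a doublet caller, marked 1.26%, 1.09% and 1.33% of barcodes and 2 of the 541 B cells.

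Few barcodes lay at the edge of the rule. Among barcodes that passed the exclusions, 3, 0 and 2 had exactly 2 *Cd79a* and *Cd79b* UMIs in WT CD, WT HFD and KO HFD, and 4, 1 and 0 had exactly 3. By contrast 299, 106 and 61 B cells had 12 or more. The exclusions removed 176 of the 717 barcodes that reached 3 UMIs, and 134 of these had a *Pecam1* UMI, mostly a single one (112 barcodes). *Pecam1* encodes CD31, which leukocytes also carry, and 119 of the 134 had a *Ms4a1* UMI.

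The promoter of *Cd79a* is shown here for reference, since this gene chose the cells, together with the promoter of *Jchain*, the gene that set a subset of them apart. Both windows run from 250 bases before to 50 bases after the start site (RefSeq, GRCm38.p6), at chr7:24897247-24897546 on the plus strand and chr5:88527848-88528147 on the minus strand, and both are written 5′ to 3′ along the gene.
Cd79a: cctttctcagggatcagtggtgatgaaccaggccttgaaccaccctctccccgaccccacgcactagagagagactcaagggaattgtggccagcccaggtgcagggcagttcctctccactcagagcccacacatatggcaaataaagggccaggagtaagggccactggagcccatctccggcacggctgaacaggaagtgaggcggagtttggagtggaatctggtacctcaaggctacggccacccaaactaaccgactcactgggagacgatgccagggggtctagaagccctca
Jchain: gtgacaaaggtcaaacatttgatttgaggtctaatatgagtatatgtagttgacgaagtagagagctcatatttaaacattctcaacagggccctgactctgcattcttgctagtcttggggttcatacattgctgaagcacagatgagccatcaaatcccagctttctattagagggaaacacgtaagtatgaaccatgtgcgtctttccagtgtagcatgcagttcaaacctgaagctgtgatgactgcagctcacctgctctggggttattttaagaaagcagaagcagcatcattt
Neither window held the immunoglobulin octamer ATGCAAAT, which 1.74% of 32851 promoters hold on either strand, nor the letters CCCNNGGG of an EBF-type site, which 13.7% hold.

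B cells made up a lower share of both HFD libraries. They were 344 of 4132 barcodes in WT CD (8.33%, 7.50% to 9.21%), 118 of 3774 in WT HFD (3.13%, 2.59% to 3.73%) and 79 of 4369 in KO HFD (1.81%, 1.43% to 2.25%). The 3 intervals did not overlap. The share was 2.66-fold lower in WT HFD than in WT CD (difference -5.20 points, -6.22 to -4.19), 4.60-fold lower in KO HFD than in WT CD (-6.52 points, -7.47 to -5.60) and 1.73-fold lower in KO HFD than in WT HFD (-1.32 points, -2.02 to -0.646). This order is part of how the cells were chosen for description, and it rests on 3 libraries.

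The share was also lower in both HFD libraries with FAPs or all non-leukocytes left out of the total. FAPs, taken as barcodes with a *Pdgfra* UMI, no *Cd79a*, *Cd79b*, *Cd3e* or *Pecam1* UMI and at most 1 of *C1qa*, were 46.7%, 47.3% and 48.6% of barcodes in WT CD, WT HFD and KO HFD. Of barcodes with no *Pdgfra* UMI, B cells were 16.7%, 6.25% and 3.79%, and of barcodes with a UMI of the leukocyte gene *Ptprc* (CD45) they were 33.8%, 14.0% and 6.27%. The last shares count only the B cells with a *Ptprc* UMI, which were 241 of 344, 87 of 118 and 46 of 79, so the largest part was left out in the shallowest library. T cells differed much less, at 0.992%, 0.715% and 0.755% of barcodes, and the intervals of their 3 differences all included 0. Macrophages, with at least 5 UMIs of *C1qa* and *C1qb*, went the other way, at 3.68%, 8.56% and 6.64%. There were 8.39, 4.37 and 2.39 B cells per T cell and 2.26, 0.365 and 0.272 B cells per macrophage in WT CD, WT HFD and KO HFD. A share of a suspension does not tell fewer B cells in the muscle apart from more of other cells or from different release by digestion.

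**Figure D1:**
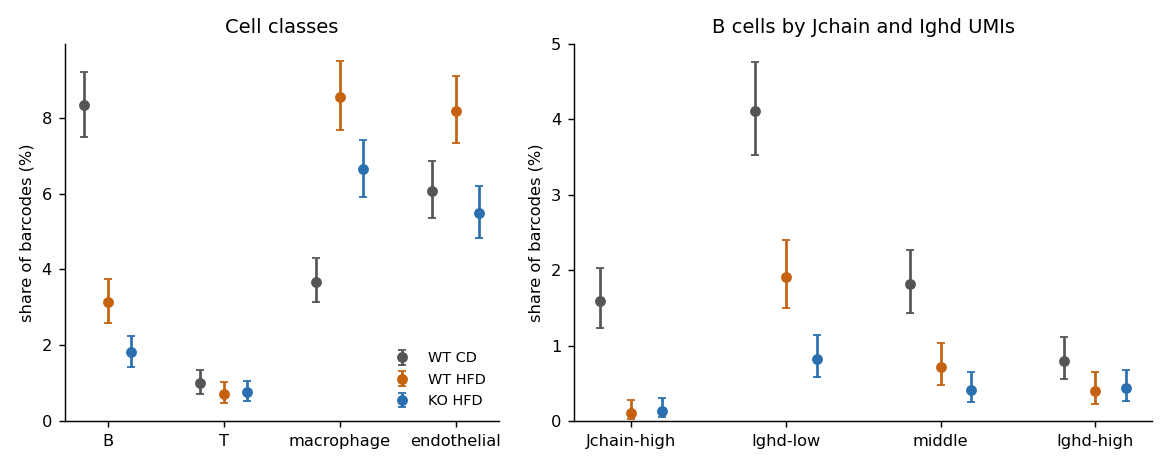
Left, share of all barcodes (%) for B cells, T cells, macrophages and endothelial cells in each library; right, the same for B cells split by *Jchain* and *Ighd* UMIs, with Jchain-high cells left out of the Ighd-low range. Points are 1 library each and bars are exact 95% binomial intervals; B cells stood at 8.33% in WT CD against 3.13% in WT HFD and 1.81% in KO HFD, and Jchain-high cells at 1.60% against 0.106% and 0.137%.

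*Ighd*, the constant gene of IgD, divided the B cells. Cells with under 1 *Ighd* UMI per 10000 UMIs were called Ighd-low, those with 4 or more Ighd-high, and the rest Ighd-middle. These are ranges of 1 gene and not cell types: 333 of 541 cells had no *Ighd* UMI, while 67 cells lay between 1 and 2 per 10000 and 29 and 23 cells lay just under and just over the upper limit (3 to 4 and 4 to 5). Ighd-low cells numbered 236, 76 and 42 in WT CD, WT HFD and KO HFD, Ighd-middle cells 75, 27 and 18, and Ighd-high cells 33, 15 and 19. Ighd-high cells were shallower, at a median of 4637 UMIs against 9930 in Ighd-low cells, and 2 of the 67 were placed there by a single UMI and 22 by 2.

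By *Ighd* UMIs per 10000, Ighd-high cells made up more of the B cells in KO HFD, but not by UMIs per cell. They were 9.59% of B cells in WT CD, 12.7% in WT HFD and 24.1% in KO HFD, a difference of 14.5 points between KO HFD and WT CD (5.62 to 25.3) and of 11.3 points between KO HFD and WT HFD (0.513 to 22.9). Cells with 5 or more *Ighd* UMIs were 11 of 344, 2 of 118 and 2 of 79 (3.20%, 1.69% and 2.53%), and 10 of the 19 Ighd-high cells of KO HFD had 2 *Ighd* UMIs. Ighd-low cells were 68.6%, 64.4% and 53.2%, 15.4 points apart between WT CD and KO HFD (3.68 to 27.3 in size) and not separable between WT HFD and WT CD (-4.20 points, -14.3 to 5.33). Without the Jchain-high cells described next, the Ighd-low difference between KO HFD and WT CD was -11.8 points and its interval included 0 (-24.3 to 0.808). With every cell thinned to 3000 UMIs, leaving out 8, 10 and 14 shallower cells, B cells with no *Ighd* UMI were 76.5%, 73.1% and 61.5%, and those with 2 or more were 7.14%, 7.41% and 13.8% (Ighd-high share of B cells, KO HFD minus WT CD, 6.70 points, -0.470 to 17.4). As shares of all barcodes, Ighd-low cells were 5.71%, 2.01% and 0.961%, Ighd-middle cells 1.82%, 0.715% and 0.412%, and Ighd-high cells 0.799%, 0.397% and 0.435%. The Ighd-high share of barcodes was thus about the same in both HFD libraries (KO HFD minus WT HFD 0.0374 points, -0.264 to 0.327), whereas the share of Ighd-low cells was lower in KO HFD. For Ighd-middle cells the interval of that difference included 0 (-0.303 points, -0.661 to 0.0232).

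A distinct set of Ighd-low cells held most of the immunoglobulin RNA. *Jchain*, which encodes the joining chain of secreted IgM and IgA, was absent from 449 B cells, and 72 cells had 100 or more of its UMIs, while only 3 cells lay at 10 to 19, 2 at 20 to 49 and 2 at 50 to 99. The 76 cells with at least 20 *Jchain* UMIs, a limit set after the counts were seen, are called Jchain-high. All 76 were Ighd-low, 21.5% of that range. They numbered 66 in WT CD, 4 in WT HFD and 6 in KO HFD, or 19.2%, 3.39% and 7.59% of B cells, and 1.60% of barcodes in WT CD against 0.106% in WT HFD and 0.137% in KO HFD. Their difference in share of barcodes from WT CD was -1.49 points in WT HFD (-1.93 to -1.11) and -1.46 points in KO HFD (-1.90 to -1.08). Counting every barcode with at least 20 *Jchain* UMIs, whatever its *Cd79a* and *Cd79b* UMIs, gave 94, 6 and 10 barcodes (2.27%, 0.159% and 0.229%).

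**Figure D2:**
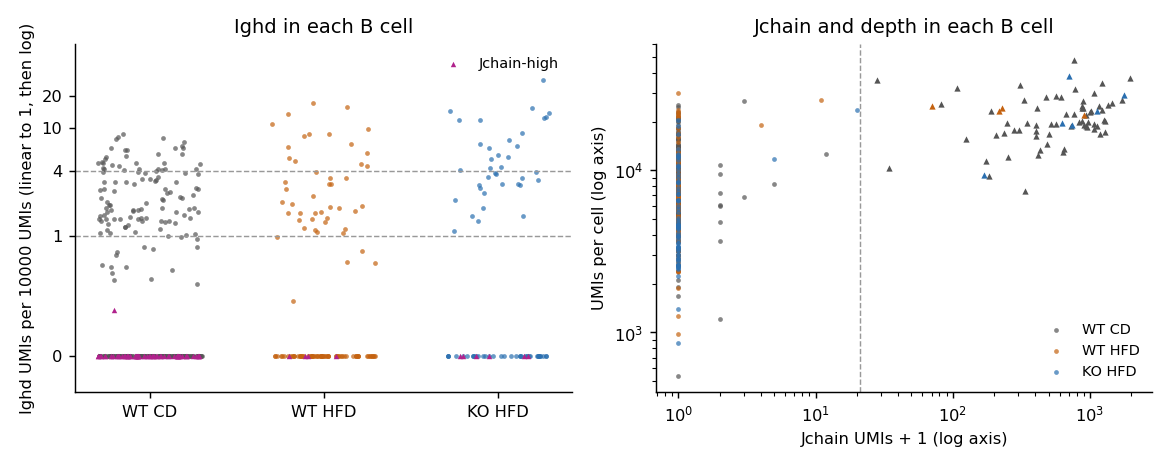
Left, *Ighd* UMIs per 10000 UMIs of each B cell by library (axis linear to 1, then log), with Jchain-high cells as triangles; right, *Jchain* UMIs plus 1 against UMIs per cell (both log axes), with the limit of 20 dashed. Jchain-high cells lay at or near 0 *Ighd* and had a median of 20175 UMIs, and few cells lay near the limit.

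Jchain-high cells had more RNA of *Jchain*, *Xbp1*, *Sdc1* and *Tnfrsf17* and less of *Ms4a1* and *Ebf1* than the other Ighd-low cells. *Jchain* stood at 32531, 15003 and 37003 CPM in WT CD, WT HFD and KO HFD, against 10.9, 19.7 and 76.8 CPM in the other Ighd-low cells. *Xbp1*, the transcription factor that expands the secretory apparatus, stood at 657, 361 and 606 CPM against 36.3, 34.8 and 83.5 CPM. *Sdc1* (CD138) and *Tnfrsf17* (BCMA), surface proteins of plasma cells, were at 115, 53.1 and 86.6 CPM and at 112, 53.1 and 144 CPM, and *Tnfrsf17* had at most 0.605 CPM in the other ranges. *Jchain* chose the cells, so its separation was set in advance. The groups did not overlap for *Xbp1*, *Sdc1* and *Tnfrsf17* either, but these are examples from the plasma cell list. How many of all genes did not overlap was not counted. *Ms4a1* was instead at 37.9, 128 and 28.9 CPM, below the 947, 1024 and 895 CPM of the other Ighd-low cells, and *Ebf1*, a factor of B cell identity, was at 26.0, 21.3 and 7.22 CPM against 584, 605 and 658 CPM. The B cell list of 12 genes, rule genes included, summed to 1784, 2858 and 2973 CPM against 8217, 7883 and 7762 CPM. Immunoglobulin genes took 53.3%, 39.3% and 53.5% of the UMIs of Jchain-high cells, and per 1000000 of the other UMIs the list summed to 3822, 4707 and 6387 against 8442, 8114 and 7987. *Ly6d*, a surface protein of B lineage cells, gave 51.3%, 49.4% and 84.5% of the list's UMIs in Jchain-high cells, and at 2511 CPM in KO HFD it stood above the 1142 CPM of the other Ighd-low cells. Not all plasma cell genes were higher in Jchain-high cells. *Prdm1* had no UMI in Jchain-high cells of KO HFD. *Mzb1* was higher in Jchain-high cells than in the other Ighd-low cells of WT CD and WT HFD, but lower in KO HFD. Since *Jchain* chose the Jchain-high cells and they are 4 and 6 in the HFD libraries, their levels carry no test. Their median depth was 20175 UMIs, and 26 of 76 (21, 3 and 2) had a *Ms4a1* UMI.

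The isotype of the B cells was almost uniformly IgM. A cell was called where it had at least 5 UMIs of the heavy-chain constant genes other than *Ighd* and 80% of them were of 1 gene. Of the called cells, 309 of 314 in WT CD, 101 of 101 in WT HFD and 54 of 54 in KO HFD were *Ighm* cells. The 5 others were Jchain-high cells of WT CD, 4 with *Ighg2c* and 1 with *Ighg3*. No cell was called as *Ighg1*, *Ighg2b*, *Igha* or *Ighe*. Light chains were kappa in 65 of the 66 Jchain-high cells of WT CD and in all 10 of the HFD libraries. Lambda cells were 16.3% of the other called B cells in WT CD (11.6% to 22.1%), 10.0% in WT HFD (4.68% to 18.1%) and 7.35% in KO HFD (2.43% to 16.3%), intervals that overlapped, with 67, 23 and 2 cells unclear.

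Variable genes were shared among Jchain-high cells of WT CD. Of 63 cells with 1 heavy and 1 kappa variable gene called, 44 (69.8%) had a pair that at least 1 other cell also had, in 11 pairs of 30 distinct ones. *Ighv1-53* with *Igkv1-117* was found in 9 cells, *Ighv1-26* with *Igkv3-2* in 8, *Ighv9-3* with *Igkv4-59* in 5, and *Ighv12-3* with *Igkv4-91*, a pair known from B-1 cells that bind phosphatidylcholine, in 4. The 4 *Ighg2c* cells all had *Ighv8-8* with *Igkv10-96*. In WT HFD the 3 called cells had different pairs. In KO HFD 3 of the 5 called cells had *Ighv7-1* with *Igkv15-103* and 1 had *Ighv11-2* with *Igkv14-126*, another pair of that kind. Gene counts do not show the junction, so cells with the same pair need not be 1 clone, and they can come from either mouse of the pool.

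Immunoglobulin UMIs in FAPs were most frequent in WT CD, the library with the most Jchain-high cells. *Igkc* UMIs were found in 30.2% of FAPs in WT CD, 2.35% in WT HFD and 3.20% in KO HFD, and *Jchain* UMIs in 2.90%, 0.224% and 0.282%. T cells had *Igkc* UMIs in 18 of 41, 6 of 27 and 1 of 33 barcodes. The source of these UMIs was not tested. The part of RNA from other cells in the *Igkc* and *Jchain* values of single B cells was not tested either. FAPs of WT CD, which by their rule had no *Cd79a* or *Cd79b* UMI, had 3.43 CPM of *Jchain* in sum. Barcodes of WT CD with a *Pdgfra* UMI, whatever their *Cd79a* and *Cd79b* UMIs, had 456 CPM, and 3.29% of them had a *Jchain* UMI. Jchain-high cells of the same library had 32531 CPM.

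The other genes of Ighd-high and Ighd-low cells were compared over the 3 libraries. UMIs were summed per library and range, giving 6 sums, and tested with edgeR's quasi-likelihood test with the library as a block, without *Ighd* and the rule genes. Of 3506 genes tested, 200 (5.7%) were higher in Ighd-high cells and 274 (7.82%) in Ighd-low cells (Benjamini-Hochberg adjusted p under 0.05). The Ighd-low sums were deeper, and 1181 of the 3506 genes had under 10 UMIs in each Ighd-high sum and so passed the filter through the Ighd-low sums alone. Of these, 158 were higher in Ighd-low cells and 1 in Ighd-high cells, so in the gene lists below such genes are set apart. Of the other 2325 genes, 116 were higher in Ighd-low cells and 199 in Ighd-high cells. With Jchain-high cells and mixed barcodes left out, settings chosen after seeing the data, 94 and 133 of 2793 genes passed, of which 92 and 109 were also called with all cells. Of the 133, 59 were tested through the Ighd-low sums alone, and of the 94 none. The model had 2 residual degrees of freedom and took 1 common spread for all genes, so its p-values are small where libraries vary, and DESeq2 called fewer genes (49 and 98). With ranges of 0 or 1 against 5 or more *Ighd* UMIs per cell, 9 and 63 of 3738 genes were called. Without the WT CD library the counts were 99 and 135 of 3343. With a robust edgeR prior, *Ighm*, *Igkc* and *Iglc2* were not called with all cells (adjusted p = 0.222, 0.199 and 0.365).

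Ighd-high cells had higher RNA of follicular B cell genes. *Fcer2a*, which encodes the low-affinity IgE receptor CD23, stood at 136 CPM in WT CD, 142 CPM in WT HFD and 305 CPM in KO HFD in Ighd-high cells and at 7.15, 22.5 and 4.56 CPM in Ighd-low cells. The groups did not overlap, and the log2 fold change was 3.78 (SE 0.37; edgeR adjusted p = 4.08e-22, DESeq2 1.75e-10). *Satb1*, a chromatin organiser, stood at 281, 321 and 275 CPM against 14.3, 26.5 and 45.6 CPM (log2 3.38, SE 0.31; edgeR adjusted p = 2.80e-25). *Ccr7*, the chemokine receptor for entry into lymph nodes, was higher by 2.23 on the log2 scale (SE 0.28). *Bach2*, which holds back plasma cell differentiation, was higher by 2.26 (SE 0.39) and *Foxp1* by 1.03 (SE 0.19). Of the 12 genes of the follicular list, 10 were tested and 7 were higher in Ighd-high cells (70.0%, against 5.7% of all genes tested). The median log2 fold change was 2.12 against -0.03 over all genes tested. *Klf2*, *S1pr1* and *Cxcr5* did not pass (log2 0.30, 0.21 and -0.71). On the cells without Jchain-high cells and mixed barcodes, 6 of 9 passed (66.7%, against 3.37% of all genes tested, median 1.77).

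The genes with the largest change toward Ighd-high cells included *Fcer2a*, *Satb1*, *Neurl3*, *Cd72*, *Ms4a4c*, *Stat4*, *Zfp318*, *Lamb3* and *Lmo2*, with log2 fold changes of 3.78 to 2.38. *Zfp318* encodes the factor that allows the long *Ighm* to *Ighd* transcript, and it stood at 61.4, 35.6 and 76.3 CPM against 5.85, 17.2 and 9.13 CPM (log2 2.51, SE 0.58; edgeR adjusted p = 0.000388). *Cd72*, an inhibitory coreceptor, stood at 408, 321 and 259 CPM against 56.5, 29.1 and 18.3 CPM (log2 2.83, SE 0.27). Of these genes, *Stat4* and *Lamb3* were too low to be tested once Jchain-high cells and mixed barcodes were left out.

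General B cell and antigen presentation genes were also higher in Ighd-high cells. Of 10 tested genes of the B cell list, 6 passed, among them *Ebf1* (log2 1.11, SE 0.17) and *Pax5* (log2 1.22, SE 0.34), while *Ms4a1* was at 0.25 (SE 0.16; edgeR adjusted p = 0.356). Only 2 of the 10 passed without Jchain-high cells and mixed barcodes. All 10 MHC class II genes were tested and 7 were higher in Ighd-high cells (median log2 0.64), against 5.7% of all genes tested. Among them were *H2-Ab1* (log2 0.71, SE 0.12), *H2-Aa* (0.61, SE 0.12) and the invariant chain *Cd74* (0.43, SE 0.10). Without Jchain-high cells and mixed barcodes 5 of 10 passed (median 0.51), against 3.37% of all genes. *H2-Aa*, *H2-Ab1*, *H2-Eb1* and *Cd74* changed sign when ranges were set by *Ighd* UMIs per cell and not per 10000. *Ltb*, the lymphotoxin that organises lymphoid tissue, was higher by 1.41 (SE 0.20), and *Gpr183*, which guides B cells within follicles, by 1.10 (SE 0.33). Of 18 tested genes of B cell receptor signalling, 3 (16.7%, against 5.7% of all genes tested) were higher in Ighd-high cells, *Cd72*, *Cd22* and *Ptpn6*. In Ighd-low cells 1, *Cd81*, was higher (5.56%, against 7.82% of all genes tested). Of these only *Cd72* passed without Jchain-high cells and mixed barcodes. The trafficking list had 10 genes tested, of which 3 were higher in Ighd-high cells, *Ccr7* and *Gpr183* among them, and *Itgb1* and *Ccr2* in Ighd-low cells. *Ccr2* had 0 UMIs in all Ighd-high sums and so passed the filter through the Ighd-low sums alone, was too low to be tested without mixed barcodes, and changed sign between the lowest and the highest tercile of *Ighd*.

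**Figure D3:**
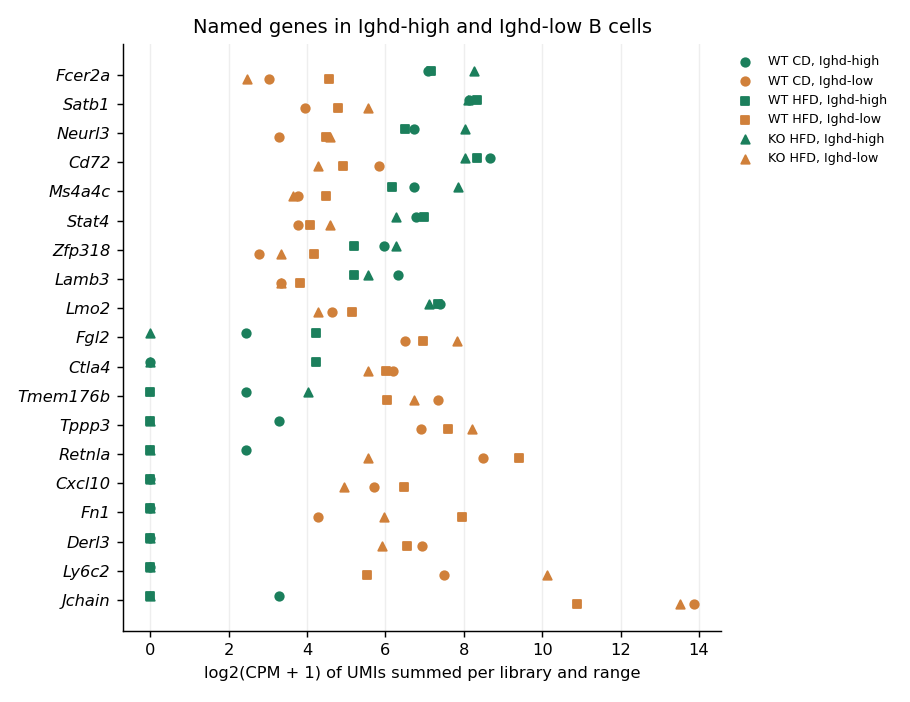
Levels of the named genes as log2(CPM + 1) of UMIs summed per library and range, with marker shapes for the 3 libraries, green for Ighd-high and orange for Ighd-low cells. *Fcer2a* lay at 136 to 305 CPM in the 3 Ighd-high sums and at 4.56 to 22.5 CPM in the 3 Ighd-low sums.

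*S100a6* and other genes of the B-1 list were higher in Ighd-low cells. *S100a6*, a calcium-binding protein, stood at 1659, 3180 and 3522 CPM in WT CD, WT HFD and KO HFD in Ighd-low cells and at 579, 321 and 305 CPM in Ighd-high cells (log2 -2.78, SE 0.16; edgeR adjusted p = 6.65e-64, DESeq2 1.29e-14, robust edgeR 0.00709). *Cd9*, a tetraspanin of innate-like B cells, stood at 116, 144 and 162 CPM against 13.2, 17.8 and 45.8 CPM (log2 -2.97, SE 0.44). *Zbtb32*, a repressor of B-1 and memory B cells, had 0 UMIs in all Ighd-high sums and 26.6, 46.4 and 25.1 CPM in Ighd-low cells, at least 3.49-fold higher against the limit of 3 UMIs over all Ighd-high sums. *Bhlhe41*, a factor required by B-1a cells, was at 31.5, 37.1 and 70.8 CPM against 13.2, 17.8 and 15.3 CPM (log2 -1.76, SE 0.61; edgeR adjusted p = 0.0324, DESeq2 0.330). Of 15 genes of the B-1 list, 11 were tested, and 6 of these passed the filter through the Ighd-low sums alone, where a high gene enters more readily. Of the other 5, *S100a6*, *Anxa2*, *Vim* and *Lgals1* were higher in Ighd-low cells, with all cells and without Jchain-high cells and mixed barcodes, and these 4 are expressed by many activated cells. Of the 6, *Ctla4*, *Bhlhe41*, *Zbtb32* and *Cd9* were called, a count that is not independent of the filter. *Il5ra*, *Nfatc1* and *Fcrl5* did not pass.

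Among the 10 genes with the largest change toward Ighd-low cells, *Ly6c2*, *Derl3*, *Fn1* and *Cxcl10* had 0 UMIs in all 3 Ighd-high sums, and *Jchain*, *Retnla*, *Tppp3* and *Ctla4* in 2 of them, so the fitted fold changes of the latter rest on few UMIs. All 10 had at most 2 UMIs in each Ighd-high sum and passed the filter through the Ighd-low sums alone, so their calls are not independent of the filter and their values are a description. *Ly6c2* was at least 29.3-fold higher in Ighd-low cells, *Derl3*, which exports misfolded proteins from the endoplasmic reticulum, at least 12.8-fold, *Fn1* (fibronectin) at least 7.34-fold and the chemokine *Cxcl10* at least 6.44-fold. *Retnla*, *Fn1* and *Lyz2* are abundant in macrophages, and after Jchain-high cells and mixed barcodes were left out none of them was high enough to be tested. *Tppp3*, *Tmem176b*, *Ctla4* and *Fgl2* completed the 10. *Tppp3*, a microtubule-binding protein, stood at 120, 192 and 294 CPM in Ighd-low cells against 8.77, 0 and 0 CPM (log2 -5.10, SE 0.55). *Fgl2*, a fibrinogen-like protein, stood at 89.4, 123 and 226 CPM against 4.38, 17.8 and 0 CPM (log2 -4.64, SE 0.59), and *Ctla4*, an inhibitory receptor of lymphocytes, at 72.8, 63.6 and 45.6 CPM against 0, 17.8 and 0 CPM (log2 -4.74, SE 0.84).

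Immunoglobulin RNA followed the same direction. *Ighm* stood at 35132, 7841 and 24826 CPM in Ighd-low cells of WT CD, WT HFD and KO HFD and at 1351, 1906 and 1434 CPM in Ighd-high cells, and all 5 tested constant genes (*Ighm*, *Igkc*, *Iglc1*, *Iglc2* and *Iglc3*) were higher in Ighd-low cells. *Ighm* and *Ighd* come from 1 primary transcript, so *Ighm* is not independent of the range. Without Jchain-high cells and mixed barcodes *Ighm* differed by -1.72 (SE 0.13) and *Igkc* by -1.35 (SE 0.10) on the log2 scale, and 4 of the 5 genes passed, all but *Iglc3*. With the robust prior 2 of the 5 were called with all cells, and 3 without Jchain-high cells and mixed barcodes. *Iglc3* changed sign when Jchain-high cells alone were left out. Of 7 tested plasma cell genes, 4 (*Xbp1*, *Jchain*, *Derl3* and *Prdm1*) passed the filter through the Ighd-low sums alone, and all 4 were called, *Xbp1* at a log2 fold change of -3.66 (SE 0.40). Of the other 3, *Mzb1* (-2.98, SE 0.19) and *Sec11c* were higher in Ighd-low cells. When Jchain-high cells and mixed barcodes were left out, only *Mzb1* (-2.20, SE 0.21) and *Prdm1*, which encodes BLIMP-1, the master factor of plasma cells (-3.38, SE 0.71), passed, the latter again tested through the Ighd-low sums alone, and *Xbp1* did not (-0.76, SE 0.54; edgeR adjusted p = 0.491). *Prdm1* stood at 38.1, 60.5 and 120 CPM in Ighd-low cells that were not Jchain-high, and had no UMI in Jchain-high cells of KO HFD.

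Immediate early genes divided between the ranges. Of 21 tested, 5 were higher in each (median log2 -0.17), and without Jchain-high cells and mixed barcodes 3 were higher in Ighd-high and 4 in Ighd-low cells (median 0.08). *Atf3*, a stress-responsive factor, stood at 629, 668 and 979 CPM in Ighd-low cells against 101, 71.2 and 30.5 CPM in Ighd-high cells (log2 -3.47, SE 0.25; edgeR adjusted p = 3.36e-39, DESeq2 2.24e-12). *Egr1* (log2 -2.84, SE 0.38) and *Jun* (-2.33, SE 0.25) went with it. *Egr3* (log2 1.55, SE 0.39), *Nr4a2* (1.72, SE 0.40) and *Dusp2* (1.63, SE 0.24), which respond to antigen receptor signals, were higher in Ighd-high cells. Tissue digestion also induces genes of this list, and its part was not tested. Of 10 heat shock genes, *Hspa1a* alone passed, higher in Ighd-low cells (log2 -1.74, SE 0.54), although its 91.5 CPM in Ighd-high cells of KO HFD lay above all Ighd-low sums. Without Jchain-high cells and mixed barcodes it was too low to be tested, and *Hsp90ab1* alone of 8 passed, higher in Ighd-low cells (log2 -0.41, SE 0.13; edgeR adjusted p = 0.0382). Of 3 tested genes of the interferon response list, 1 was higher in each range, *Bst2* in Ighd-low cells (log2 -2.22, SE 0.44). The marginal zone list had 5 genes tested, with *Cd9* and *Mzb1* higher in Ighd-low cells, and the age-associated list had 2, of which none passed. *Egr1*, *Hspa1a*, *Bst2* and *Cd9* passed the filter through the Ighd-low sums alone. No gene of the germinal centre or the immature and transitional lists was high enough to test. These summed to 31.8, 18.4 and 16.5 CPM and to 26.2, 35.8 and 31.3 CPM in all B cells of WT CD, WT HFD and KO HFD.

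**Figure D4:**
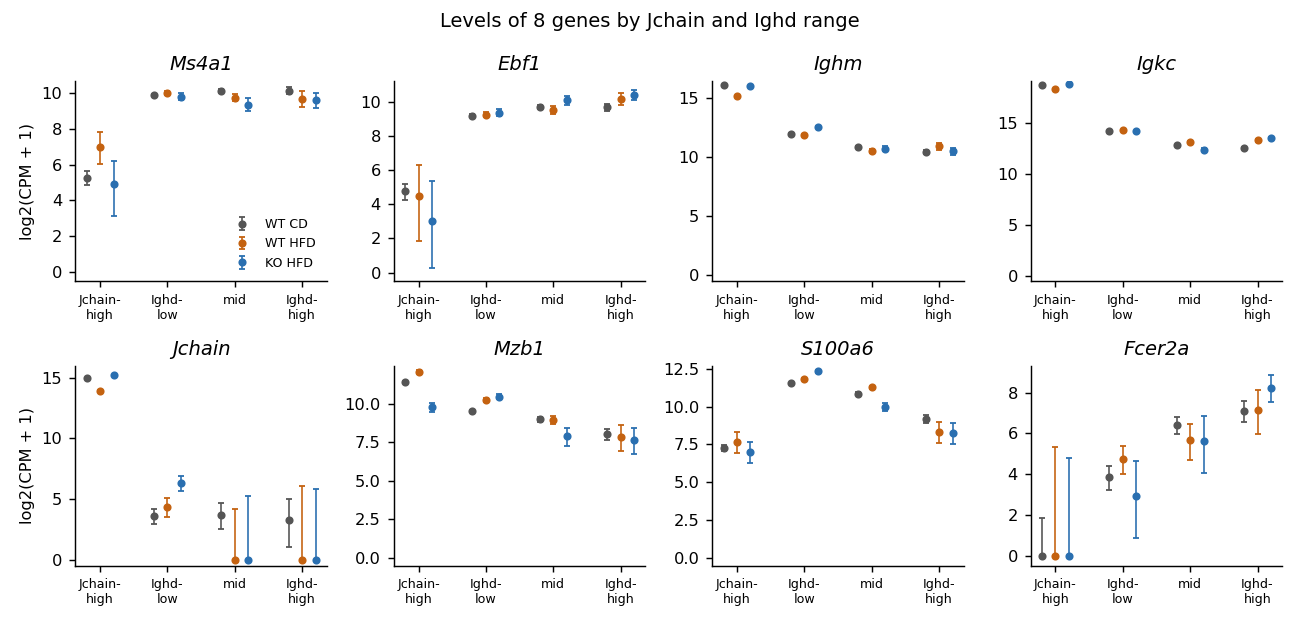
Levels of 8 genes as log2(CPM + 1) in Jchain-high, other Ighd-low, Ighd-middle and Ighd-high B cells of each library, with exact 95% Poisson intervals. *Jchain* stood at 15003 CPM or more in Jchain-high cells and at 76.8 CPM or less elsewhere, and *S100a6* was lower in Jchain-high (130 to 202 CPM) and Ighd-high cells (305 to 579 CPM) than in the other Ighd-low cells (2957 to 5091 CPM).

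The levels of *Fcer2a* and *S100a6* in Ighd-middle cells were set beside those of the other ranges. *Fcer2a* stood at 84.4, 49.4 and 48.8 CPM in WT CD, WT HFD and KO HFD in Ighd-middle cells, above the Ighd-low cells and below the Ighd-high cells of each library. *S100a6* stood at 1846, 2458 and 1015 CPM there, above the Ighd-high cells and below the Ighd-low cells that were not Jchain-high (2957, 3604 and 5091 CPM). In WT CD this was above the 1659 CPM of all Ighd-low cells. Jchain-high cells stood below the other Ighd-low cells at *S100a6* (154, 202 and 130 CPM) or *Zbtb32* (0.702, 0 and 0 CPM, against 36.7 to 53.0 CPM).

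B cells of the libraries were then set side by side, with UMIs summed per library. A gene was called where it reached 50 CPM in either library, differed at least 2-fold and had separate Poisson intervals. Between WT HFD and WT CD, 66 of 2075 genes were higher in WT HFD (3.18%) and 29 were lower (1.4%). Immunoglobulin genes held 20.9% of B cell UMIs in WT CD and 5.73% in WT HFD, and the median log2 ratio of all genes was 0.36. With TMM scaling the median was -0.01, and the counts were 21 higher and 45 lower of 1951.

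Of the 7 immunoglobulin constant genes that reached 50 CPM, 5 were lower in WT HFD B cells, as were 2 of 6 plasma cell genes. Without Jchain-high cells 0 of 5 and 0 of 3 were lower, and without these and mixed barcodes 2 of 5 plasma cell genes were higher (median log2 ratio 0.88). *Ighg2c* stood at 2588 CPM in WT CD and at 0 in WT HFD, at least 892-fold lower. Its UMIs came from 8 of 344 cells, and the 4 cells called as *Ighg2c* were all Jchain-high and had 1 variable gene pair. The others with the largest ratios were *Igkv3-2*, *Ighv9-3*, *Ighg3*, *Ighv1-53*, *Ighv7-3*, *Ighv8-8*, *Igkv4-59*, *Ighv1-26* and *Ighv1-42*. Of the 29 lower genes 13 were variable genes, and 1 of 14 without Jchain-high cells. *Jchain* was 8.63-fold lower (11897 to 1379 CPM), *Xbp1* 3.84-fold lower (260 to 67.7 CPM) and *Ighm* 4.57-fold lower (28088 to 6150 CPM). With Jchain-high cells left out (66 in WT CD and 4 in WT HFD), the log2 ratios of *Ighm* and *Igkc* were -0.04 and 0.17.

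The genes highest in WT HFD B cells were *Ccl4*, *Igkv1-135*, *Ccr2*, *Mgl2*, *Lpl*, *Fn1*, *Alox5ap*, *Ccl9*, *Fcrls* and *Ccl2*. *Igkv1-135* came from 1 cell. *Ccr2*, the monocyte chemokine receptor, was 17.0-fold higher and came from 11 of 118 cells, *Mgl2* was 12.7-fold and *Lpl* 12.4-fold higher, from 7 cells each. The macrophage list was also highest in WT HFD (1025 CPM), and when mixed barcodes were left out all of the 10 except *Igkv1-135* fell under 50 CPM.

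Without Jchain-high cells and mixed barcodes, 17 genes were higher and 14 lower in WT HFD than in WT CD of 2110, and 3 and 2 of them were also called with all cells. The genes named here were chosen after their values were seen. *Creld2*, which encodes a protein of the endoplasmic reticulum, stood at 23.7 CPM in WT CD and 141 CPM in WT HFD (17.8 to 31.0 and 115 to 171 CPM, 5.94-fold), *Derl3* at 12.7 and 57.3 CPM (4.49-fold), and *Hsp90b1*, the chaperone GRP94, at 409 and 858 CPM (2.10-fold). *Manf* was 2.15-fold, *Dnajc3*, the cochaperone P58IPK, 2.17-fold and *Nans*, a sialic acid synthase, 2.62-fold higher, and *Prdm1* 2.07-fold (26.4 to 54.5 CPM). With all cells, *Creld2*, *Derl3*, *Hsp90b1*, *Manf*, *Dnajc3* and *Nans* did not reach the 2-fold limit. In KO HFD, with the same cells left out, *Creld2* stood at 46.1 CPM. Genes lower in WT HFD included *Rgs1* (72.5 to 5.59 CPM, but 54.4 and 66.8 CPM with all cells), *Hspb1* (56.7 to 9.78 CPM), and *Irgm1*, which interferon induces (69.0 to 25.1 CPM).

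The promoters of 4 of these genes are printed because they share a motif. Capitals mark the endoplasmic reticulum stress element, searched as CCAAT and CCACG with 9 bases between them on either strand, which 39 of 32851 promoters of this length hold (0.119%). The windows (RefSeq, GRCm38.p6, 250 bases before to 50 after the start site) lie at chr10:75893148-75893447 on the plus strand, chr15:88819396-88819695 on the plus strand, chr10:86705395-86705694 on the minus strand and chr14:118937682-118937981 on the plus strand, in the order printed.
Derl3: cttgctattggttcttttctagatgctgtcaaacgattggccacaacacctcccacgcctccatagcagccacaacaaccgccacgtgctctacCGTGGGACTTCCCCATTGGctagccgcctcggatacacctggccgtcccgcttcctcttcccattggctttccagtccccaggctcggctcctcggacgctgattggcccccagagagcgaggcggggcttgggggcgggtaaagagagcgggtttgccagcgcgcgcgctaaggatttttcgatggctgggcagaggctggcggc
Creld2: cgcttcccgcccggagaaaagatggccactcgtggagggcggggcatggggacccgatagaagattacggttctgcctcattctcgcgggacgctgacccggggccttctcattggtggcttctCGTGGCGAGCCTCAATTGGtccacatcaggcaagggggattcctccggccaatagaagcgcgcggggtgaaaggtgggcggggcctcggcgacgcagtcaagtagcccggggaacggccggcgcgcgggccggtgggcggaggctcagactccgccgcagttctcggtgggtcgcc
Hsp90b1: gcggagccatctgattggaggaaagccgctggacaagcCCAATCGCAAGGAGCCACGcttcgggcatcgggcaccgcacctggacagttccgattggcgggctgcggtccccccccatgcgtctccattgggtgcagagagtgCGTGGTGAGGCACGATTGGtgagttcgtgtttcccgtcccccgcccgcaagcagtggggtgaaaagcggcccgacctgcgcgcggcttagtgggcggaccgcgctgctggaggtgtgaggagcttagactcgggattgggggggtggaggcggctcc
Dnajc3: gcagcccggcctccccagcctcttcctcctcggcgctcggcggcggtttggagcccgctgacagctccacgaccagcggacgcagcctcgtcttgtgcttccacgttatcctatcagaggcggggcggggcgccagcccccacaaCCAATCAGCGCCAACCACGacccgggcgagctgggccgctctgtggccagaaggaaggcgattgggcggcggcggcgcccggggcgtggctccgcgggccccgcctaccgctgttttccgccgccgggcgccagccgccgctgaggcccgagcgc
*Hsp90b1* held 2 matches and the others 1 each. Of the 7 genes named as higher above, 5 were searched, and the window of *Prdm1* did not hold these letters. *Manf* and *Nans* were not searched. The genes were chosen for printing after the match was known, and a match is a description of the letters. Matches among the other genes higher in WT HFD were not counted, so these matches do not describe the 17 genes as a group.

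**Figure D5:**
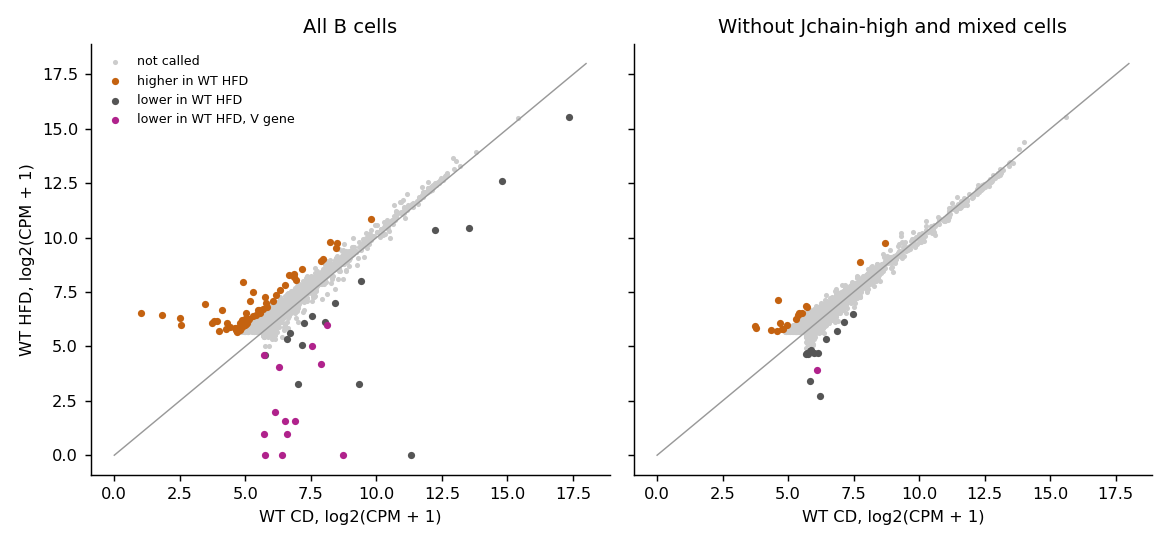
B cell levels in WT HFD against WT CD as log2(CPM + 1), with all cells (left) and without Jchain-high cells and mixed barcodes (right); called genes are coloured, with lower variable genes in purple, and the line marks equality. With all cells 66 genes were called higher and 29 lower, 13 of the latter variable genes, and without both sets 17 and 14 were called.

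Between KO HFD and WT HFD, 23 of 2145 genes were higher in KO HFD B cells (1.07%) and 56 were lower (2.61%). All genes shifted by a median of -0.20 on the log2 scale, with immunoglobulin genes at 13.9% of B cell UMIs in KO HFD against 5.73%, and with TMM scaling the median was 0.03 and 39 and 25 of 2016 genes were called. This comparison shares the WT HFD library with the one above. The highest were *Igkv15-103*, *Ighv4-1*, *Ighv11-2*, *Igkv3-10*, *Ly6c2*, *Igkv14-126*, *Hspb1*, *Ighv7-1*, *Prg2* and *Jchain*. *Igkv15-103* came from 3 cells, *Ighv11-2* from 3, and *Ighv4-1* and *Igkv3-10* from 1 each. *Jchain* was 6.16-fold higher (1379 to 8498 CPM), with 6 Jchain-high cells of 79 against 4 of 118. The lowest were *Slpi*, *Cxcl2*, *Lyz1*, *Igkv1-135*, *Retnla*, *Igkv1-117*, *Ccl2*, *Fn1*, *Eif3j1* and *Ccl4*, with *Slpi* from 2 cells of WT HFD.

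With Jchain-high cells and mixed barcodes left out, 27 genes were higher and 21 lower in KO HFD than in WT HFD of 2223, of which 9 and 14 were also called with all cells. *Ccr7* stood at 153 CPM in KO HFD and 68.4 CPM in WT HFD (2.24-fold), with 111 CPM in WT CD. *Cxcr4*, the receptor for the bone marrow chemokine CXCL12, stood at 109 and 37.7 CPM (2.90-fold), *Neurl3* at 102 and 37.7 CPM (2.71-fold), *Dusp2* at 282 and 126 CPM (2.24-fold) and the cell cycle inhibitor *Cdkn1a* at 216 and 65.6 CPM (3.29-fold). *Ccr7*, *Neurl3* and *Dusp2* were also higher in Ighd-high cells. Without Jchain-high cells, Ighd-high cells were 26.0% of KO HFD and 13.2% of WT HFD B cells. By 5 or more *Ighd* UMIs per cell the shares of all B cells were 2.53% and 1.69%. The part of these shares in the 3 genes was not tested. *Creld2* was 3.06-fold lower in KO HFD (141 to 46.1 CPM). Of the follicular list, 8 genes reached 50 CPM and 1 was called (median log2 ratio 0.47), and of the B-1 list 9 reached it and none was called (median -0.01), against -0.04 over all genes.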

How the data were processed

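Mononuclear cells of mouse diaphragm were profiled with 10x Genomics 3′ v3.1 chemistry in 3 libraries. The authors aligned reads to mm10 with Cell Ranger (6.1.1 in the submitters' processing notes, 6.1.0 in the matrix headers) and deposited filtered matrices of raw UMI counts for 32285 genes. No barcode was removed here. Doublets were called with Scrublet (scanpy 1.11.5) and kept. The B cell rule, the *Ighd* ranges, the 28 gene lists and the alternatives were chosen with earlier results of these data known, and the Jchain-high limit, the mixed barcodes and the robust prior after the counts were seen. UMIs were summed per library, or per library and *Ighd* range, and given as CPM. Shares have exact 95% binomial intervals and sums exact Poisson intervals.

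Ighd-high and Ighd-low sums were compared with edgeR 4.0.16 (R 4.3.3, glmQLFit and glmQLFTest, TMM, library block, at least 10 UMIs in 3 of 6 sums, Benjamini-Hochberg adjustment over 3506 genes). DESeq2 1.42.0 was the alternative tool. On simulated sums the edgeR step recovered 37 of 100 genes changed 2-fold and 99 of 100 changed 4-fold. It made 4 false calls of 140, over 3094 genes. The share of false calls on the measured sums, where genes can differ in spread, was not tested. The text names the label markers, *Thbs1*, the immunoglobulin constant genes, the 10 largest changes per direction among called genes of the same direction in all 3 libraries (*Ighd* contrast, at least 50 CPM) or among called genes (library comparisons), and examples from the lists. A few genes that this rule names are not reported here. Alternatives changed the B cell rule, denominator, ranges, normalization, filters and members. Promoters came from RefSeq (GRCm38.p6). Python 3.11.15, numpy 2.4.6, scipy 1.17.1 and matplotlib 3.10.9 were used.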

Additional observations from a re-analysis of the deposited data

How the results depend on the processing

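The B cell share was lower in both HFD libraries, and lower in KO HFD than in WT HFD, under all alternatives run. The difference in points WT HFD minus WT CD, KO HFD minus WT CD and KO HFD minus WT HFD was -10.4, -12.9 and -2.46 of barcodes with no *Pdgfra* UMI, and -19.9, -27.6 and -7.72 of barcodes with a *Ptprc* UMI. The B cell share, WT HFD minus WT CD, was -4.05 with *Ms4a1* required and -3.71 without Jchain-high cells, and B cell share, KO HFD minus WT CD, -5.44 and -5.06. With no exclusion KO HFD minus WT CD was -8.29 and KO HFD minus WT HFD -2.10, and with the *Pecam1* exclusion dropped -7.84 and -2.03. The Ighd-low share of B cells, WT HFD minus WT CD, turned from -4.20 to 2.01 points without Jchain-high cells. With 5 or more *Ighd* UMIs per cell, the Ighd-high share of B cells, WT HFD minus WT CD, turned from 3.12 to -1.50 points, and Ighd-high share of B cells, KO HFD minus WT CD, from 14.5 to -0.666.

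For genes higher in Ighd-high and in Ighd-low cells (200 and 274), the counts were 49 and 98 with DESeq2's Wald test, 9 and 63 with ranges of 0 or 1 against 5 or more *Ighd* UMIs, 115 and 150 without Jchain-high cells, 94 and 133 without these and mixed barcodes, and 111 and 154 with the robust prior on the latter cells. With no filter on low counts 67 were higher in Ighd-high cells and 367 in Ighd-low cells. Leaving out each library in turn gave 99 to 151 and 135 to 225, the lowest without WT CD. At an unadjusted p under 0.05 edgeR had 405 and 475. With ranges by UMIs per cell *H2-Aa* (-0.34), *H2-Ab1* (-0.28), *H2-Eb1* (-0.19), *Cd74* (-0.62) and *Junb* (-0.47) changed sign, with the lowest against the highest tercile *Fn1* (0.21), *Retnla* (0.0266) and *Ccr2* (0.53), and without Jchain-high cells *Iglc3* (0.0628). The causes were not tested.

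For WT HFD against WT CD, higher and lower genes (66 and 29) were 21 and 45 with TMM, 230 and 54 from 20 CPM, 39 and 14 without Jchain-high cells and 17 and 14 without these and mixed barcodes. The higher genes were 36 with immunoglobulin genes left out of the total and 30 without mixed barcodes, and the lower ones 19 with the ranges weighted alike. For KO HFD against WT HFD (23 and 56) they were 39 and 25 with TMM and 38 and 114 from 20 CPM. The lower ones were 36 without immunoglobulin genes, 20 with ranges weighted alike, 34 without Jchain-high cells and 21 without both sets. No paired analysis was possible because each group is 1 library and the labels carry no replicate numbers.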

Other observations

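In the KO HFD library *Eif3j1*, a subunit of translation initiation factor 3, was low in B cells and elsewhere. It stood at 101, 109 and 26.7 CPM in B cells of WT CD, WT HFD and KO HFD without Jchain-high cells and mixed barcodes, and at 99.3, 111 and 27.0 CPM in barcodes that were not B cells. Its near-identical copy *Eif3j2*, on chromosome 18, stood at 8.48, 9.12 and 69.4 CPM in the latter and at 3.52, 0 and 58.3 CPM in the B cells. Reads of the 2 genes may thus be split by the counting, and the values of both are uncertain. *Eif3j1* lies on chromosome 2, 3.92 Mb from *Thbs1* (start 118111876, GRCm38). Of the 48 genes called between KO HFD and WT HFD B cells without those members, 4 lay within 10 Mb of *Thbs1*, where 18 genes reached 50 CPM (22.2%, against 2.16% of all 2223 genes). *Eif3j1*, with its uncertain value, is 1 of these 4, *Eif3j2* is also among the 48, and the cause of this share was not tested. The others of the 4 were *Zfp106*, at 207 CPM in WT HFD and 60.7 CPM in KO HFD and 2.39 Mb away, *Ehd4* at 34.9 and 114 CPM (1.98 Mb) and *Dusp2* (9.22 Mb). In barcodes that were not B cells *Zfp106* stood at 78.4 and 81.9 CPM, *Ehd4* at 64.1 and 75.3 CPM and *Dusp2* at 27.1 and 26.6 CPM.

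*Ighm* UMIs were found in 61.2% of macrophages in WT CD (53.0% to 69.0%), 46.4% in WT HFD (40.9% to 52.0%) and 52.1% in KO HFD (46.2% to 57.9%), at median depths of 8688.5, 8611 and 8087 UMIs. In FAPs of the same libraries the shares were 6.07%, 0.504% and 1.04%, and in T cells 19.5%, 22.2% and 18.2%, at median depths of 6154, 5386 and 5431 UMIs. *Igkc* UMIs were found in 29.6%, 2.48% and 3.45% of the macrophages.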
